A study of Mus musculus with 15 samples.

Results

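The effect of homozygous mutation of Ifit2 on the lung at rest was asked by setting 3 unchallenged mutant mice against 4 unchallenged wild-type mice, which are 7 of the 15 arrays measured. Each array holds whole-lung RNA of 1 mouse, and all mice were C57BL/6 aged 22 weeks. The unchallenged wild types were labelled wild type with the treatment control, and the unchallenged mutants were labelled homozygote with the same treatment. The remaining 8 mice, 4 of each genotype, received ovalbumin (OVA), an allergen from egg white that is used to model asthma in mice, and are given here beside the unchallenged values. The mutated gene is taken from the series title, which names IFIT2. The sources used here do not state the mutant allele, the source of the wild-type mice or which cells carry the mutation. Of 25697 probes on the array, 14396 had a detection p-value under 0.05 on at least 3 of the 15 arrays and were compared, and 13535 of them name 10194 genes. Where a gene had several probes, its brightest was used. Levels below are background-corrected, quantile-normalized log2 intensities, and differences are mutant minus wild type on that scale.

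Interferons act through cell-surface receptors whose signals lead transcription factors, IRF9 among them, to interferon-stimulated response elements in the promoters of interferon-stimulated genes. Ifit2 is one of these genes and encodes an RNA-binding tetratricopeptide repeat protein that is strongly induced by interferon and restricts several viruses. Ifit3, a close relative and its neighbour on chromosome 19, is induced by the same signals. In lung such genes are raised by infection.

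The promoter windows of both genes are shown because Ifit2 and Ifit3 lie side by side, and in the mutants the Ifit2 probes lay below and the Ifit3 probes above the wild-type mean. They come from RefSeq (GRCm38.p6) and run from 250 bases before to 50 bases after the annotated start, on the plus strand, with matches to the response-element core (GAAA, any 2 bases, then GAAA again), searched on both strands, in capitals. The table holds 2 windows for Ifit2, of which the first, chr19:34550444-34550743, is printed, and 1 for Ifit3, chr19:34583279-34583578.
Ifit2: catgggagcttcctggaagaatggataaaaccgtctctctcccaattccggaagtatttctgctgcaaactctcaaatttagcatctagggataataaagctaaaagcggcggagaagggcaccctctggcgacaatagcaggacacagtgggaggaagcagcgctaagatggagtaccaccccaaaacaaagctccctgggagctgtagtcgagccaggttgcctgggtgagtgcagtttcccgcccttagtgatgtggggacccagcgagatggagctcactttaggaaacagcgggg
Ifit3: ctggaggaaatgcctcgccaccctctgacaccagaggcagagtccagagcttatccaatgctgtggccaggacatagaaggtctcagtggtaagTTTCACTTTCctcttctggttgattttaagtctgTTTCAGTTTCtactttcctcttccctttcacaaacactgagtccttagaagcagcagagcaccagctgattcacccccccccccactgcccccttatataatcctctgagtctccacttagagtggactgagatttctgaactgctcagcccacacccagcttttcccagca
The Ifit3 window held 2 matches and the Ifit2 windows 0. Of all 32851 windows of 300 bases in the table, 3.44% held the core. Of the 28 tested interferon-stimulated genes with a window, 12 held it in at least 1 window (42.9%), against 3.99% of all 27025 genes. These letters are a match and not a measured binding site, and a window without them says nothing about binding elsewhere.

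The groups did not differ detectably in mean brightness. The mean raw signal was 599 ± 70.1 intensity units (SD, n = 4) in wild types and 637 ± 25.7 (SD, n = 3) in mutants (exact two-sided permutation p = 0.571), and 51.4 ± 2.24% and 51.8 ± 1.19% of probes were detected (exact two-sided permutation p = 0.743). Arrays of different genotype correlated at 0.973 to 0.991 over all tested probes, mutants with each other at 0.979 to 0.985 and wild types with each other at 0.975 to 0.993. Wild type 1 was the dimmest array, with a mean raw signal of 494.7 intensity units against 619.6 to 666.3 on the other unchallenged arrays. The lung labels were borne out by Sftpc, Sftpb, Scgb1a1, Ager, Pecam1 and Cdh5, markers of alveolar type 2, club, alveolar type 1 and endothelial cells, each detected on 7 of 7 arrays. The design text calls the mutants male, whereas Xist, which silences 1 X chromosome in female cells, was detected on 7 of 7 arrays by both its probes, and of the Y-linked genes Eif2s3y, Kdm5d and Sry were detected on 0 and Uty on 1. The stated sex of the mutants therefore goes against these probes, which read alike in both genotypes. With 3 and 4 mice, precision is limited by the number of arrays.

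Ifit2 fell in the mutants, and it was the only gene to pass the adjusted threshold of 0.05 in unchallenged lung. On the brighter of its 2 probes, ILMN_2981169, the wild types stood at 8.21, 8.28, 8.28 and 8.26 and the mutants at 5.08, 4.91 and 5.22. The groups were far apart, and all 3 mutants lay where probes are not well above background. The difference was -3.19 ± 0.19 (SE; limma adjusted p = 4.75e-07). On the other probe, ILMN_2981167, the wild types stood at 7.63, 7.92, 7.73 and 7.76 and the mutants at 4.68, 4.74 and 4.71, a difference of -3.05 ± 0.17 (SE; limma adjusted p = 2.82e-07). Because neither probe was detected in any of the 7 mutants of the series, while both were detected in all 8 wild types, the loss has only a lower bound. Set against the lowest signal detected on each array, Ifit2 was at least 6.49-fold lower on the first probe and at least 4.59-fold lower on the second. Each probe alone gave an exact two-sided permutation p of 0.0286, the smallest that 3 against 4 arrays allow. The sources used here do not say whether the mutated stretch covers the probes.

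Ifit3 was higher in all 3 mutants than in all 4 wild types on its brightest probe, ILMN_2944666. The wild types stood at 10.09, 10.13, 10.06 and 10.38 and the mutants at 10.90, 10.64 and 10.58. The difference was 0.54 ± 0.13 (SE; limma unadjusted p = 0.00108, adjusted p = 0.999), so it did not pass over all probes. Its other probes gave 0.24 ± 0.17 (ILMN_1246194) and 0.23 ± 0.20 (ILMN_1230458), and on the last of these the groups overlapped. In challenged lung, which is measured on other mice, the brightest probe gave 0.64 ± 0.12 (SE; limma adjusted p = 0.0585). Ifit1, a further member of the family, was below detection on all 15 arrays, so no level is given for it.

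**Figure D1:**
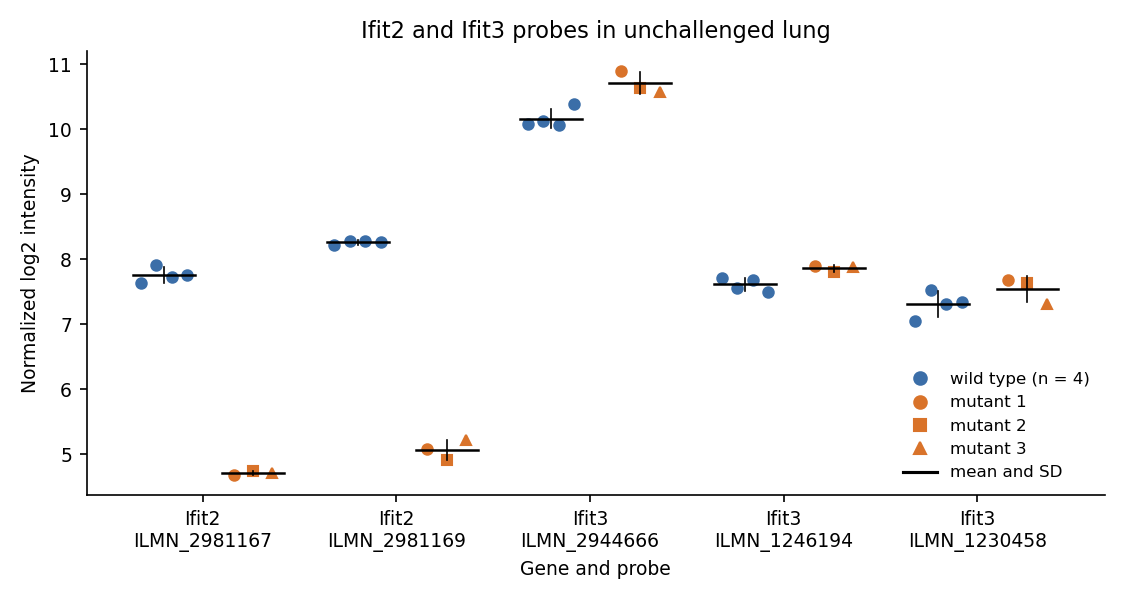
Normalized log2 intensity (vertical axis) of the Ifit2 and Ifit3 probes in unchallenged lung, with 1 point per mouse, bars for the mean and lines for the SD (wild type n = 4, mutant n = 3). Both Ifit2 probes lie near 5 or below in mutants and above 7.6 in wild types, and the brightest Ifit3 probe is higher in each mutant than in each wild type.

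Over all 14396 probes, 2 passed at an adjusted p under 0.05, 0 of them higher and 2 lower in mutants, which is 0.0139% of the probes. Both are the Ifit2 probes, so 1 of 10194 genes was called (0.00981%). Among all other genes the smallest adjusted p was 0.999. At an unadjusted p under 0.05 there were 375 probes (2.60%), of which 183 were higher (1.27%) and 192 lower (1.33%), against 5% that the threshold allows when nothing differs. By gene these are 139 higher (1.36%) and 130 lower (1.28%). Genes named below other than Ifit2 are therefore given as values and were not called.

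The 10 higher genes with the smallest p had unadjusted p-values from 0.00103 to 0.00197. They were Lcn2, Ifit3, Slc26a4, Chil3, Mfap5, Retnla, Derl3, Dpt, AA467197 and Siglec1. The groups did not overlap for 6 of them, against 2.88% of all genes in that direction, but both this order and the absence of overlap come from the same arrays. Dpt, which encodes the extracellular matrix protein dermatopontin, stood at 10.13, 9.93, 9.93 and 10.08 in wild types and 10.40, 10.44 and 10.84 in mutants (0.54 ± 0.14, SE). Mfap5, a microfibril-associated glycoprotein of the elastic fibre system, stood at 8.78, 8.63, 8.78 and 8.60 in wild types and 9.33, 9.01 and 9.41 in mutants (0.55 ± 0.14, SE). For both genes every mutant lay above every wild type, and in challenged lung the differences were -0.01 for Dpt and 0.12 for Mfap5. Siglec1, the sialic acid receptor sialoadhesin of macrophages, stood at 5.98, 5.77, 5.60 and 5.76 in wild types and at 6.71, 6.05 and 6.37 in mutants, and its difference was 0.60 ± 0.16 here and 0.60 in challenged lung. Derl3, a component of the machinery that removes misfolded proteins from the endoplasmic reticulum, was not well above background on any wild-type array and was detected on 2 of 3 mutant arrays. Its mutant mean, the undetected array included, lay 1.08-fold above the lowest signal detected on wild-type arrays.

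The 10 lower genes with the smallest p were Ifit2, Adam3, Kazald1, Dnmbp, Hps1, Cox15, Fdxacb1, Kank2, Bach1 and Ninl. The 9 genes besides Ifit2 had unadjusted p-values from 0.000733 to 0.00329. Bach1, a transcriptional repressor of haem oxygenase and other antioxidant genes, stood at 8.11, 8.23, 7.92 and 7.84 in wild types and at 7.67, 7.37 and 7.44 in mutants (-0.53 ± 0.15, SE), with -0.42 in challenged lung. Kank2, an adaptor between integrin adhesions and the cytoskeleton, stood at 6.71, 6.64, 6.67 and 6.53 in wild types and 6.21, 6.09 and 6.07 in mutants (-0.51 ± 0.13, SE). In challenged lung it was detected on 2 of 4 wild-type and 0 of 4 mutant arrays. Its wild-type mean there, the undetected arrays included, lay 1.01-fold above the lowest signal detected on mutant arrays. Bach1 and Kank2 were both lower in each unchallenged mutant than in each unchallenged wild type. Adam3, of the family of membrane-bound disintegrin metalloproteases, differed by -0.55 ± 0.13, and was detected on 0 of 8 challenged arrays. Fdxacb1 and Ninl were not detected in any unchallenged mutant and were detected on 3 of 4 wild-type arrays. Their wild-type means, the undetected array included, lay 1.16-fold (Fdxacb1) and 1.34-fold (Ninl) above the lowest signal detected on mutant arrays.

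Of the 10 lower genes, 5 lie on chromosome 19, the chromosome of Ifit2: Kazald1, Dnmbp, Hps1 and Cox15 besides Ifit2 itself. Of the 25 genes with the smallest p in either direction, 6 lie there, the mutated gene Ifit2 itself among them. Of all tested genes with a known chromosome 3.54% do. All 6, Ifit2 included, had the same sign in challenged lung, where Dnmbp was detected on 0 of 8 arrays and Kazald1 on 4. Across chromosome 19, 17 of 361 tested genes were at an unadjusted p under 0.05 (4.71%, against 2.64% of all genes), and 16 of 360 remain without Ifit2 (4.44%), 13 lower and 3 higher. Chromosome 13 stood at 4.61%.

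By gene order along chromosome 19, the lower genes lay mostly on 1 side of Ifit2. Among the 100 tested genes next to it on the distal side, 8 were lower at an unadjusted p under 0.05 (8%, against 1.28% of all genes) and 1, Ifit3, was higher. Among the 100 on the proximal side 2 were lower and 2 higher, among the 141 beyond them 3 were lower and 0 higher, and among the 19 at the distal end 0 were in either direction. The windows of 100 were set after the values had been seen. The groups did not overlap for 7 of the 8 lower distal genes. Of all 129 lower genes at an unadjusted p under 0.05 besides Ifit2, 100 did not overlap. The threshold and the overlap are read from the same arrays, so the 7 of 8 adds nothing to the count of 8. All 8 were also lower in challenged mutants, 4 of them at an unadjusted p under 0.05 there, but 2 of the 8, Dnmbp and Gpam, were detected on 0 of the 8 challenged arrays, so their sign there compares background with background. The median difference over the 100 distal genes was 0.02, so the stretch as a whole was not lower. The nearest lower gene on that side, Pdlim1, has 21 tested genes between it and Ifit2.

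Hps1, a subunit of the complex that builds lysosome-related organelles such as the lamellar bodies of alveolar type 2 cells, had the largest difference on chromosome 19 after Ifit2 among the brightest probes. Its wild types stood at 7.28, 7.12, 6.45 and 7.05 and its mutants at 5.93, 5.87 and 5.85, so the groups did not overlap. The difference was -1.09 ± 0.27 (SE), and -0.77 in challenged lung (limma unadjusted p = 0.00789). Kazald1, a secreted protein with a Kazal-type domain, stood at 7.07, 6.89, 5.91 and 6.76 in wild types and 5.72, 5.68 and 5.67 in mutants (-0.97 ± 0.23, SE). Here wild type 3 lay near the mutants. With all arrays the limma adjusted p was 0.999, and without wild type 3 the difference was -1.21 (limma adjusted p = 0.0276). Dropping the wild type nearest the mutants widens the difference in any case, so that p-value adds no support. In challenged lung the difference was -0.30. Dnmbp, a scaffold between dynamin and actin regulators, stood at 6.44, 6.32, 5.69 and 6.31 in wild types and 5.59, 5.50 and 5.49 in mutants (-0.66 ± 0.16, SE), and was detected on 1 of 3 mutant arrays. Cox15, needed to make the haem A of cytochrome oxidase, stood at 8.39, 8.25, 8.16 and 8.24 in wild types and 7.82, 7.84 and 7.66 in mutants (-0.49 ± 0.12, SE).

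The following genes of the same chromosome fall outside the rule for named genes and were chosen after their values were seen. Pdlim1, an actin-associated PDZ and LIM domain protein, stood at 11.87, 11.78, 11.75 and 11.89 in wild types and at 11.26, 10.99 and 11.07 in mutants. The groups were well apart, with a difference of -0.71 ± 0.21 (SE) and of -0.47 ± 0.19 in challenged lung. Prkg1, a cyclic GMP-dependent protein kinase of smooth muscle and the lower gene nearest to Ifit2 on the proximal side, stood at 7.18, 7.10, 7.10 and 7.29 in wild types and 6.42, 6.32 and 6.69 in mutants (-0.69 ± 0.23, SE). Mfsd13a, of the major facilitator family, differed by -0.47 ± 0.15 and by -0.42 ± 0.14 in challenged lung. Btrc, the substrate-recognition subunit of a ubiquitin ligase, differed by -0.41 ± 0.17 on its brightest probe and by -0.76 ± 0.18 on ILMN_2690741. Gpam, an acyltransferase of glycerolipid synthesis, differed by -0.38 ± 0.17, and mutant 2 lay within the wild types.

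Arl3, a small GTPase of cilia, gave values that disagree between its probes. On ILMN_1238801 the wild types stood at 8.60, 9.14, 8.28 and 9.01 and the mutants at 6.45, 6.79 and 6.30, with no overlap. The difference there was -2.24 ± 0.49 (SE; limma unadjusted p = 0.000423, adjusted p = 0.999), the largest of any chromosome 19 probe apart from those of Ifit2, and in challenged lung, where it was detected on 3 of 4 wild-type and 0 of 4 mutant arrays, the limma adjusted p was 0.0978. On the brighter probe ILMN_2786860 the wild types stood at 9.47, 9.01, 9.28 and 9.40 and the mutants at 9.02, 9.20 and 9.02, which overlap (-0.21 ± 0.16, SE).

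The immediate neighbours of Ifit2 differed less. Of the 37 genes listed around it, 20 were tested, 1 of them, Ifit3, at an unadjusted p under 0.05, and their median difference was 0.05. Lipa, a lysosomal lipase and the next tested gene on the proximal side, stood at 9.22, 9.38, 9.07 and 9.42 in wild types and 9.89, 9.51 and 9.57 in mutants (0.39 ± 0.21, SE). Pank1, a pantothenate kinase and the tested gene after Ifit3, differed by 0.25 ± 0.19, and by 0.70 in challenged lung (limma adjusted p = 0.116). Fas, a death receptor, and Ch25h, an interferon-induced cholesterol hydroxylase, differed by -0.23 ± 0.24 and 0.17 ± 0.25, within the spread of the mice.

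**Figure D2:**
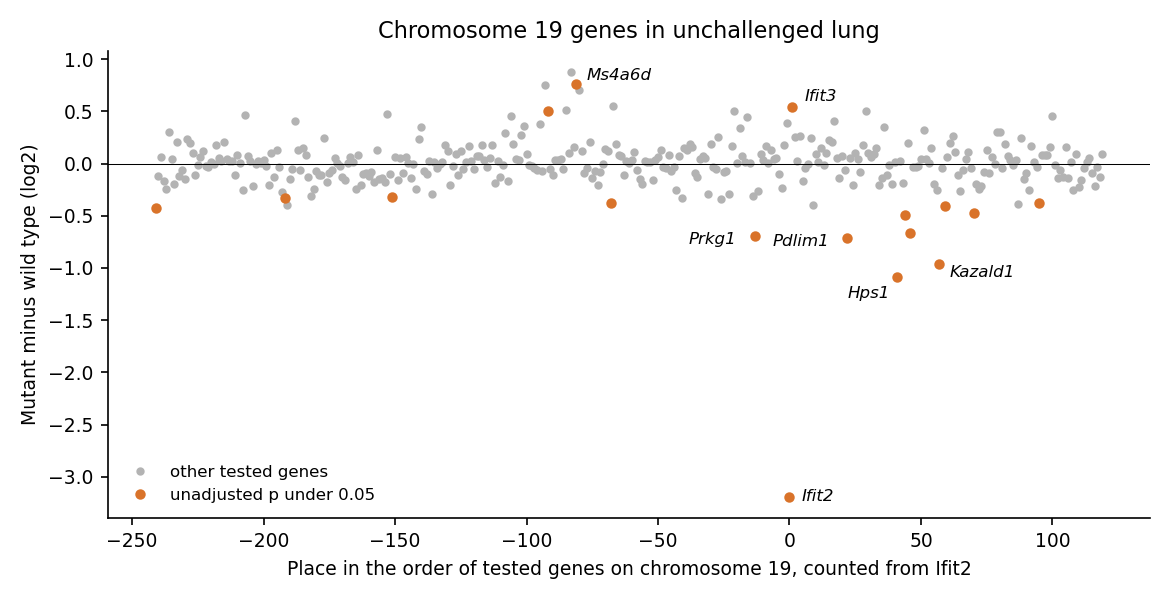
Difference between unchallenged mutants and wild types (log2, vertical axis) for the 361 tested genes of chromosome 19, placed by their order from Ifit2 at 0 (horizontal axis, distal to the right), with genes at an unadjusted p under 0.05 in orange. Ifit2 stands alone at -3.19, and 8 of the 100 genes to its right are lower at that threshold against 2 of the 100 to its left.

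Interferon-stimulated genes were not called in unchallenged mutants, but most lay slightly above the wild types. Of 60 listed genes 49 had a probe and 38 were tested. At an adjusted p under 0.05, 0 were higher and 0 lower. At an unadjusted p under 0.05, 5 were higher (13.2%, against 1.36% of all genes) and 0 lower. The groups did not overlap with mutants higher for 7 of 38 (18.4%, against 2.88% of all genes). The median difference was 0.15, with 29 of 38 above 0, beside -0.01 over all genes. Taken by mouse, the list's median against the wild-type mean was 0.29 in mutant 1, -0.02 in mutant 2 and 0.13 in mutant 3, and from -0.03 to 0.08 in the wild types, so that mutant 2 lay within the wild types. Without mutant 1 the list's median difference was 0.10.

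Besides Ifit3, the 4 interferon-stimulated genes at that level were Zbp1, Lgals3bp, Irf9 and Trim30a. Irf9, a transcription factor of the interferon response, stood at 9.27, 9.35, 9.16 and 9.42 in wild types and at 9.77, 9.58 and 9.59 in mutants (0.34 ± 0.13, SE; limma unadjusted p = 0.0180), while its second probe, ILMN_2636339, differed by 0.02 ± 0.19. Lgals3bp, a secreted galectin-binding glycoprotein, stood at 10.74, 10.37, 10.37 and 10.69 in wild types and 11.09, 10.78 and 10.95 in mutants (0.40 ± 0.15, SE). Trim30a, a tripartite motif protein that dampens innate immune signalling, stood at 8.69, 8.86, 8.91 and 9.01 in wild types and 9.23, 9.04 and 9.41 in mutants (0.36 ± 0.17, SE). On the brightest probe of each of these every mutant lay above every wild type. Zbp1, a sensor of nucleic acids in the Z conformation, was not well above background on any wild-type array and was detected in all 3 mutants, which bounds it at least 1.14-fold higher, whereas its second probe, ILMN_1228653, differed by -0.17 ± 0.17.

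Ifi27, a small mitochondrial protein, and Usp18, the protease that removes Isg15, also did not overlap on their brightest probes, with differences of 0.23 ± 0.12 and 0.12 ± 0.13. A second probe of Ifi27 differed by 0.18 ± 0.12, and other probes of Usp18 by 0.25 ± 0.13 and 0.31 ± 0.18. Oas1g, a sensor of double-stranded RNA, stood at 7.97, 7.81, 7.63 and 8.09 in wild types and 8.60, 7.85 and 8.31 in mutants (0.38 ± 0.18, SE). Its second probe, ILMN_2628822, differed by 0.42 ± 0.16. Isg15, the ubiquitin-like modifier, ranged from 5.66 to 7.08 in wild types and from 5.89 to 7.42 in mutants (0.32 ± 0.68, SE), and the antiviral radical-SAM enzyme gene Rsad2 differed by 0.02 ± 0.44. Irf7, the amplifier of interferon production, differed by 0.11 ± 0.20, and Stat2 by 0.23 ± 0.19. Of the 49 genes with a probe 11 were detected on 0 of the 7 arrays, among them Mx1, Oas1a, Oas3 and Xaf1. For receptors, kinases and transcription factors of the interferon pathway, 27 were tested, and their median difference was 0.07. At an unadjusted p under 0.05, 2 were higher (7.41%, against 1.36% of all genes) and 0 lower.

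A group of genes known from allergic and macrophage-rich lungs was higher in 2 of the 3 mutants, and mutant 2 mostly lay with the wild types. It includes products of alternatively activated macrophages, mucus-producing airway cells and antigen-presenting cells. Of these genes 0 passed at an adjusted p under 0.05 with all 3 mutants in the fit. In whole-lung RNA, fewer or more cells of a type and less or more RNA per cell cannot be told apart.

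Chil3, a chitinase-like protein secreted by macrophages, stood at 12.60, 12.36, 12.07 and 12.40 in wild types and at 13.88, 12.48 and 14.09 in mutants 1, 2 and 3 (1.12 ± 0.28, SE; limma unadjusted p = 0.00126, adjusted p = 0.999). Retnla, a resistin-like molecule induced by interleukin-4 and interleukin-13, stood at 11.23, 10.32, 9.98 and 9.91 in wild types and 12.98, 10.56 and 13.55 in mutants (2.00 ± 0.51, SE). Mmp12, the macrophage elastase, stood at 6.60, 6.51, 6.21 and 5.98 in wild types and 8.92, 6.20 and 9.34 in mutants (1.83 ± 0.54, SE). For each of them mutants 1 and 3 lay above all wild types and mutant 2 lay among them. Trem2, a lipid receptor of macrophages, showed the same pattern, with 6.00, 5.99, 6.06 and 6.18 in wild types and 7.68, 6.06 and 7.36 in mutants (0.97 ± 0.30, SE). So did the lysosomal protease gene Ctsk, at 9.07, 9.12, 9.00 and 8.80 in wild types and 10.29, 9.05 and 10.26 in mutants (0.87 ± 0.29, SE).

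Of 21 listed genes of alternatively activated macrophages 17 were tested, and 7 were higher and 0 lower at an unadjusted p under 0.05, with a median difference of 0.55 and 15 of 17 above 0. Those at this level make up 41.2% of the list, against 1.36% of all genes. Over the list the groups did not overlap for 0 genes. The median by mouse was 0.66 in mutant 1, 0.01 in mutant 2 and 0.85 in mutant 3, and -0.15 to 0.09 in wild types. Of 15 tested alveolar macrophage genes, which share Chil3, Trem2 and Mrc1 with that list, 3 were higher at this level (20%) and the median was 0.45, or 0.25 without mutant 3. The mannose receptor gene Mrc1 stood at 9.05, 9.09, 8.79 and 9.34 in wild types and 9.81, 9.11 and 9.92 in mutants (0.55 ± 0.26, SE).

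Genes of the airway lining that are tied to mucus behaved alike. Slc26a4, the anion exchanger pendrin, stood at 7.01, 7.25, 7.48 and 6.84 in wild types and 9.86, 7.32 and 9.40 in mutants (1.71 ± 0.43, SE; limma unadjusted p = 0.00124). Clca1, a secreted protein of goblet cells, stood at 10.25, 6.96, 5.57 and 6.49 in wild types and 11.44, 6.97 and 12.04 in mutants (2.83 ± 1.09, SE). Wild type 1 was high for this gene too, so the groups overlapped by more than for Slc26a4. Muc5ac, the gel-forming mucin of goblet cells, was not well above background in any wild type and was detected in mutants 1 and 3, at 6.52 and 6.44 against 4.98 in mutant 2. The mutant mean, mutant 2 included, lay 1.31-fold above the lowest signal detected on wild-type arrays. Of 14 tested genes of this list 2 were higher at an unadjusted p under 0.05 (14.3%, against 1.36% of all genes). All 14 lay above 0, and the median was 0.48. For 2 of the 14 (14.3%, against 2.88% of all genes) the groups did not overlap with mutants higher, so there mutant 2 also lay above every wild type.

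Genes that present antigen on MHC class II, the molecules that show peptides to helper T cells, followed the same 2 mice. H2-Eb1, a class II beta chain, stood at 11.81, 11.41, 11.59 and 11.80 in wild types and 13.14, 11.45 and 12.51 in mutants (0.71 ± 0.33, SE). H2-DMb1, a subunit of the peptide exchanger, stood at 9.98, 9.68, 9.47 and 9.85 in wild types and 10.77, 9.78 and 10.53 in mutants (0.61 ± 0.24, SE). The protease gene Ctss, which trims the invariant chain, stood at 8.76, 8.60, 8.81 and 9.04 in wild types and 10.07, 8.62 and 10.10 in mutants (0.79 ± 0.28, SE). Of 12 tested genes 4 were higher at an unadjusted p under 0.05 (33.3%, against 1.36% of all genes), and all 12 lay above 0. Their median was 0.52, and by mouse 1.14, -0.22 and 0.76 in mutants 1, 2 and 3. Wild types ran from -0.15 to 0.14, so mutant 2 lay below them. Without mutant 1 the list's median was 0.24, and without mutant 2 it was 0.92.

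Lcn2, the iron-siderophore binding lipocalin of epithelium and neutrophils, was the higher gene with the smallest p. It stood at 10.83, 10.56, 10.77 and 10.68 in wild types and 13.02, 11.17 and 12.00 in mutants (1.35 ± 0.33, SE; limma unadjusted p = 0.00103). Here mutant 2 also lay above every wild type. AA467197, a gene known by its sequence tag, stood at 7.19, 6.64, 6.42 and 6.36 in wild types and 9.80, 6.83 and 8.98 in mutants (1.88 ± 0.49, SE), with mutant 2 again among the wild types.

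**Figure D3:**
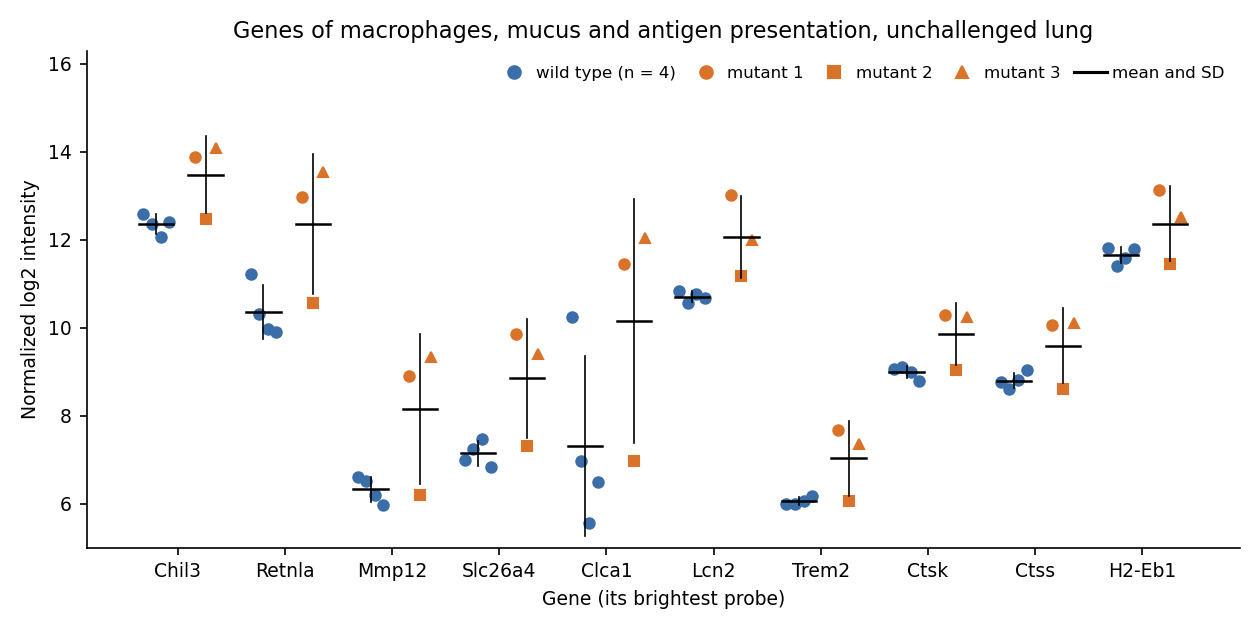
Normalized log2 intensity (vertical axis) of 10 genes in unchallenged lung, with 1 point per mouse, bars for the mean and lines for the SD (wild type n = 4, mutant n = 3). Mutants 1 and 3 are high for every gene shown, and mutant 2 lies with the wild types for all of them except Lcn2, where it stands at 11.17 above the highest wild type at 10.83.

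Across the 139 genes higher at an unadjusted p under 0.05, mutant 2 was the mutant nearest the wild-type mean for 120, mutant 1 for 13 and mutant 3 for 6. Across the 129 lower genes besides Ifit2 the counts were 78, 28 and 23. Both sets were picked on these same arrays, and the share over all genes is not given here. Over all tested probes mutant 2 correlated with wild types 2 to 4 at 0.988 to 0.991, and mutants 1 and 3 at 0.981 to 0.984. With wild type 1 the order was turned, at 0.973 for mutant 2 against 0.978 and 0.975 for mutants 1 and 3. With mutant 2 left out, 36 probes passed at an adjusted p under 0.05 in place of 2, with 34 of them higher and 2, the Ifit2 probes, lower, and they name 27 higher genes. Chil3, Retnla, Mmp12 and Slc26a4 then had differences of 1.62, 2.90, 2.80 and 2.48 (limma adjusted p = 0.000301 for each). Of the 27 genes 5 belong to the alternatively activated macrophage list, 2 to the MHC class II list, 1 to the goblet list and 12 to no list. Counted on brightest probes alone, the MHC class II list had 1 and the list of genes induced by TNF or lipopolysaccharide 3. By that count the neutrophil, dendritic cell, alveolar macrophage and type 2 cytokine lists had 2 each, and some genes are in several lists. Leaving out any other unchallenged mouse gave 2 or 3 calls, so the count rests on whether mutant 2 is included. That fit was made with the pattern in view and leaves 2 mutants, and it does not show which of the 3 mice represents the genotype.

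Some marker lists of other cells were also higher in mutants 1 and 3, and some were not. T cell genes, 17 tested of 28 listed, had medians of 0.84, -0.38 and 0.81 in mutants 1, 2 and 3 and -0.30 to 0.19 in wild types, and the list's median difference ran from 0.18 without mutant 1 to 0.68 without mutant 2. Their summed linear level was 4289, 2002 and 4238 intensity units, against 1984 to 2730 in wild types, and Cd4, Cd8a, Cd5 and Lef1 were detected on 0 of 7 arrays. Genes induced by TNF or lipopolysaccharide, 24 tested of 36, summed to 19962, 10884 and 13295 against 10044 to 10805. At an unadjusted p under 0.05, 6 were higher (25%, against 1.36% of all genes) and 1 lower (4.17%, against 1.28%). Their median was 0.26 (0.15 without mutant 1), and 0.24 in challenged lung. Of 25 neutrophil genes with a probe 17 were tested, and they summed to 33815, 16069 and 29482 against 14085 to 16727. That list also holds Lcn2 and Chil3, its medians of 0.21, -0.13 and -0.13 lay among the wild types, at -0.19 to 0.21, and Ngp, Camp, Mpo and Mmp8 were detected on 0 of 7 arrays. Thymus genes, 9 tested of 20, had medians of 0.05, -0.28 and 0.83 against -0.25 to 0.10, so that mutant 3 stood apart and mutant 1 did not, and Rag2, Dntt, Ptcra and Foxn1 were detected on 0 of 7 arrays. The part of these cells in the differences above was not tested.

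Skeletal muscle genes had the highest median of any list, 0.75, with all 24 tested genes above 0 and 0 at an unadjusted p under 0.05. The spread between mice was wide, from -1.66 in wild type 1 to 0.77 in wild type 2, with -0.14, 1.60 and 1.02 in mutants 1, 2 and 3. Myl1, a myosin light chain of fast muscle, ranged from 9.99 to 12.70 in wild types and from 11.72 to 13.37 in mutants (0.95 ± 1.16, SE), and Mb, myoglobin, from 11.15 to 12.30 and from 11.74 to 13.14 (0.69 ± 0.80, SE). In challenged lung the list's median was -1.02. Without wild type 1 the median was 0.21, below the 0.58 of the MHC class II list in the same fit, so the size and the rank rest on that mouse.

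Fat genes, 19 tested of 27, had a median of 0.45 and 1 gene higher at an unadjusted p under 0.05 (5.26%, against 1.36% of all genes). Without mutant 3 the median was 0.13, and without wild type 4 it was 0.27. Ucp1, the uncoupling protein of brown fat, stood at 4.65, 5.45, 6.47 and 4.61 in wild types and 5.17, 8.47 and 8.95 in mutants (2.23 ± 0.94, SE; limma unadjusted p = 0.0322), and was detected on 1 of 4 and 2 of 3 arrays. In challenged lung it ranged from 4.81 to 7.93 in wild types and from 8.63 to 10.62 in mutants, a difference of 2.94 (limma adjusted p = 0.170). The list summed to 12395, 14136 and 23854 intensity units in mutants 1, 2 and 3, against 9299 to 16492 in wild types. How much adipose tissue lay with each lung was not tested.

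Lists with the lowest medians moved by less. Mesothelial genes had a median of -0.25, with 7 of 8 below 0 and 1 lower at an unadjusted p under 0.05 (12.5%, against 1.28% of all genes). That gene, Lrrn4, a leucine-rich repeat protein of mesothelium, stood at 7.25, 7.36, 6.93 and 7.36 in wild types and 6.55, 6.98 and 6.83 in mutants (-0.44 ± 0.16, SE), and was higher by 0.51 in challenged mutants. Endothelial genes had a median of -0.17 over 25 tested genes, of which 2 were lower at this level (8%). Sox18, a transcription factor of blood and lymph vessels, stood at 11.23, 10.91, 11.26 and 11.21 in wild types and 10.80, 10.97 and 10.69 in mutants (-0.34 ± 0.14, SE). Eng, a co-receptor for TGF-beta ligands on endothelium, stood at 11.22, 11.07, 11.12 and 11.22 in wild types and 10.79, 11.04 and 10.78 in mutants (-0.29 ± 0.13, SE). By mouse the endothelial medians were -0.30, -0.04 and -0.24, so that mutant 2 was again the nearest to the wild types, which ran from -0.07 to 0.07.

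Gata2, a transcription factor of mast cells, basophils and endothelium, stood at 12.14, 12.18, 11.89 and 12.23 in wild types and 11.39, 11.84 and 11.86 in mutants (-0.41 ± 0.16, SE; -0.36 in challenged lung). It was the 1 gene at an unadjusted p under 0.05 among 5 tested mast cell genes (20%, against 1.28% of all genes lower). The list's median was -0.21 (-0.34 without wild type 2), and the granule genes Mcpt4 and Tpsab1 were detected on 0 of 7 arrays. Glucocorticoid-induced genes had a median of -0.19 over 17 genes, and of -0.08 to -0.32 with 1 mouse left out. Erythroid genes had a median of -0.24 over 6, with a range between wild types of -0.70 to 0.81, and of 0.01 without mutant 3. Club cell genes had a median of -0.14 over 13, with 0 at that level. Cyp2f2, a cytochrome of club cells, stood at 14.82, 14.99, 14.82 and 14.82 in wild types and 14.19, 14.90 and 14.35 in mutants (-0.38 ± 0.30, SE).

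**Figure D4:**
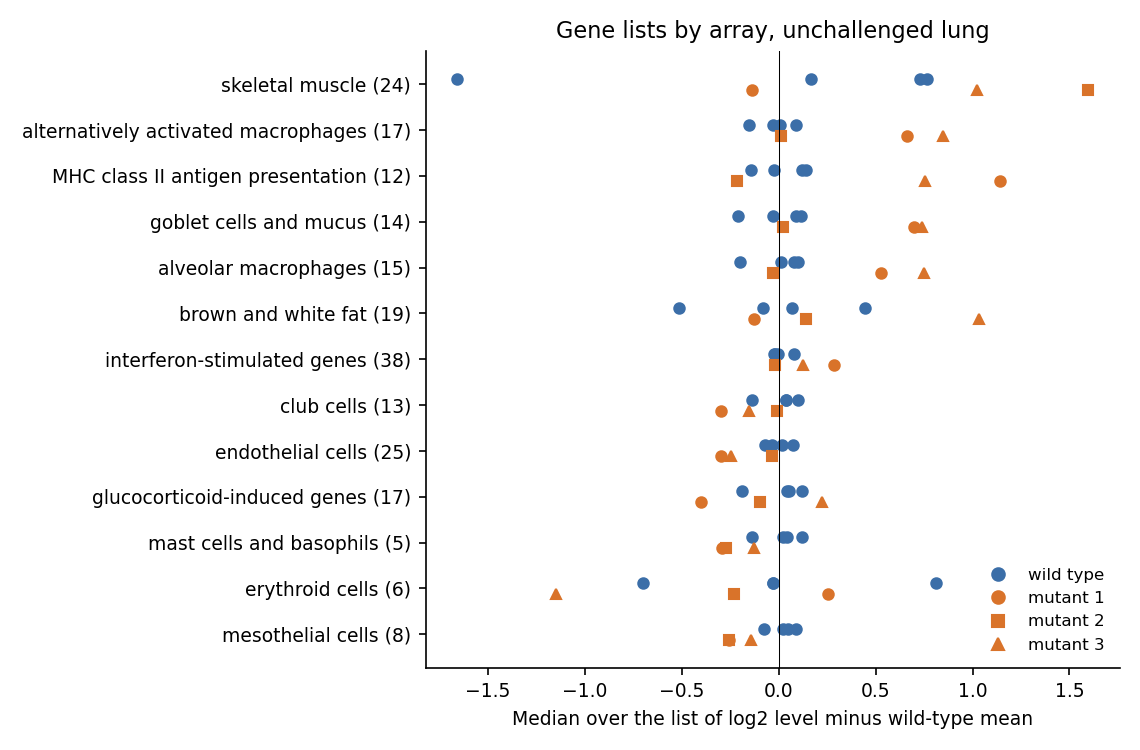
Median over each list's tested genes (their number in brackets) of the log2 level minus the mean of the 4 wild types, for each unchallenged mouse. Mutants 1 and 3 lie to the right of all wild types for the macrophage, MHC class II and goblet lists. Mutant 2 lies with the wild types for the macrophage and goblet lists and below them for MHC class II, at -0.22. For skeletal muscle the wild types themselves spread from -1.66 to 0.77.

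How the unchallenged differences compare with those between challenged mutants and challenged wild types was asked on the other 8 mice. There 25 of 14396 probes passed (0.174%), 4 higher (0.0278%) and 21 lower (0.146%), again with Ifit2 lowest in p (at least 3.97-fold lower on its brighter probe). Of the 139 genes higher in unchallenged mutants at an unadjusted p under 0.05, 109 had the same sign in challenged lung, and 32 were also higher there at that threshold, as were 6.16% of all genes. Of the 129 lower genes besides Ifit2, 99 had the same sign, and 32 were also lower at that threshold, as were 6.80% of all genes. In the opposite direction 1 and 8 genes passed it. The share of all genes with the same sign in both comparisons is not given here, so the 109 and the 99 have no baseline. The comparisons use different mice, but they share the normalization and the estimate of the spread.

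Of the genes that were high in mutants 1 and 3, Chil3 differed by -0.18 between challenged genotypes, Retnla by -0.09 and Clca1 by -0.61. Mmp12 differed there by 0.47, Slc26a4 by 0.47, Lcn2 by 0.34 and Trem2 by 0.56. None of these 7 had an unadjusted p under 0.05 in challenged lung, with Trem2 the lowest (limma unadjusted p = 0.0592). All challenged mice of both genotypes stood higher than the unchallenged wild types for Mmp12, between 10.29 and 11.60. Retnla read 15.30 to 15.55 on the challenged arrays, where 15.55 is the highest value that any probe has, so a genotype difference in Retnla may not be measurable there. Clca1 read the same 14.49 on 3 of 4 challenged wild types, which is also near the top of the scale. Chil3 read 14.24 to 14.67 on the challenged arrays, so the same limit may hold for it. The median of the alternatively activated macrophage list was 0.19, that of the goblet list -0.03, that of the MHC class II list 0.31 and that of the T cell list 0.46. The interferon-stimulated genes had a median of 0.29 in challenged lung. At an unadjusted p under 0.05, 14 of 38 were higher there and 0 lower, against 6.16% and 6.80% of all genes. Ifi27l2a alone was called (1.05, limma adjusted p = 0.0398), and its unchallenged difference was 0.29 ± 0.19. Whether the genotype difference itself differed with challenge was tested as an interaction. It passed for 0 of 14396 probes with limma, 590 (4.10%) being at an unadjusted p under 0.05.

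The 5 genes with the smallest interaction p were Spink2, Sfrp2, Akap14, Angptl4 and Lrrn4. Spink2, a serine protease inhibitor, stood at 6.16, 6.29, 6.28 and 6.63 in unchallenged wild types and 5.77, 5.85 and 5.92 in unchallenged mutants (-0.49 ± 0.16, SE). In challenged lung it stood at 6.28, 6.52, 6.71 and 6.39 in wild types and at 6.74, 7.09, 7.35 and 7.01 in mutants, so the order of the genotypes was turned, with an interaction of 1.06 (limma adjusted p = 0.950). Sfrp2, a secreted modulator of Wnt signalling, differed by -0.37 without and by 0.81 with challenge, and Angptl4, an inhibitor of lipoprotein lipase, by -0.26 and 1.08. Akap14, a protein kinase A anchoring protein of cilia, differed by -0.21 without challenge, and with it was detected on 4 of 4 wild-type and 0 of 4 mutant arrays, at least 1.93-fold lower (limma adjusted p = 0.00644).

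**Figure D5:**
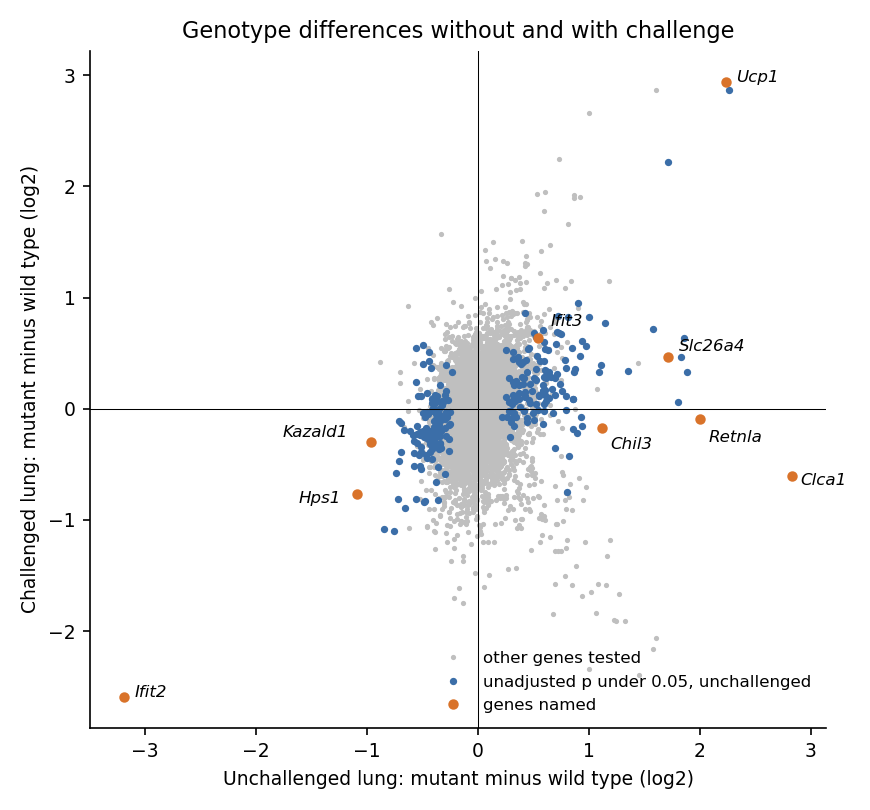
Mutant minus wild-type difference (log2) of each of 10194 genes in unchallenged lung (horizontal axis) and in challenged lung (vertical axis), with genes at an unadjusted p under 0.05 in unchallenged lung in blue and named genes in orange. Ifit2 is far below 0 on both axes at -3.19 and -2.59, Hps1 lies below 0 on both, and Chil3, Retnla and Clca1 lie to the right and near or below 0 on the vertical axis, where Retnla is at the top of the array's range.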

How the data were processed

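Per the file headers, the table deposited by the authors lists 25697 probes with their unnormalized intensity and detection p-value on 15 Illumina arrays. The submitters' processing notes name GenomeStudio 2011.1 without its role. Per the labels' protocols, Trizol RNA was column-purified and made into biotinylated cRNA. The authors' series matrix holds linear intensities, 21.1% to 21.2% of them below 0 on an array, whose normalization the sources used here do not state. It was used as an alternative.

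The function neqc of limma 3.58.1 (R 4.3.3) corrected the background and quantile-normalized the raw intensities (negative controls inferred from the detection p-values, offset 16), giving log2 values. Of the probes 23978 have 1 gene symbol and 1719 none in the platform annotation. The 4 group means were estimated from all 15 arrays by lmFit and eBayes, which leaves 11 residual degrees of freedom, with two-sided p-values adjusted by the Benjamini-Hochberg method over 14396 probes. It was tested on simulated arrays. Gene order on chromosome 19 and gene names come from RefSeq (GRCm38.p6); no build is named in the files, so no gene coordinates are printed. Replicates are separate mice. "At least" folds set the detected group against the lowest detected signal on each array of the other. Where only part of a group was detected, its mean includes the undetected arrays, so that fold is not a strict bound.

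The members, the 52 gene lists and the tests were chosen with earlier results of these data known. Genes named are Ifit2, its family and neighbours, interferon-stimulated genes, the 10 genes with the smallest p in each direction where under 5 pass, the 4 members with the smallest p of lists with at least 2 calls or among the 6 highest or lowest medians, and the 5 smallest interaction p-values. Not all of these are printed. Alternatives changed the background correction, scaling, filter, variance model, samples fitted, replicate block and replicates. Slides are not given in the files and were not used as a block.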

Additional observations from a re-analysis of the deposited data

Results flagged for a closer look

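For 3 results a single wild-type mouse lay far from the other 3, by a rule that chance meets for about 1 in 20 groups and that was applied to 59 groups, so that about 3 are what chance gives. Sox18 stood at 10.91 in wild type 2 against 11.21 to 11.26 in the others. Cyp2f2 stood at 14.99 in wild type 2 against 14.82 in each of the others. Those 3 share the same value near the top of the scale, so even a small step away from it meets the rule. The mean raw signal of wild type 1 was 494.7 intensity units against 623.6 to 645.2. Spink2 was lower in every unchallenged mutant than in every unchallenged wild type and higher in every challenged mutant than in every challenged wild type, with an interaction of 1.06 (log2) whose limma adjusted p was 0.950.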

How the results depend on the processing

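Ifit2 fell under each alternative run, with differences from -1.54 to -4.21 on its brighter probe. The count of 2 called probes in unchallenged lung was 2 or 3 under each alternative except without mutant 2. Leaving out 1 mouse gave 2 to 36. The third probe was one of Arl3 with array weights (adjusted p = 0.0155) or only the compared groups (0.0131), of Fdxacb1 with the authors' matrix (0.0263), and of Kazald1 without wild type 3 (0.0276). The 25 challenged calls became 73 with median scaling, 12 with cyclic loess, 15 with no filter, 8 with array weights, 2 with only the compared groups, 16 with the replicate block and 7 with mean signal as a covariate, chosen after seeing the data. Leaving out 1 mouse gave 7 to 192. The interaction gave 1 call with cyclic loess and 0 to 8 with 1 mouse left out. The causes were not tested, apart from the fewer samples in fits that leave some out. With the replicate number as a block, 2 unchallenged probes were called, and Ifit2 differed by -3.13. Same-numbered mice correlated at 0.241, 0.292 and -0.0853 in their deviations. Mice of different number were not compared in this way, so these values cannot show whether the numbers pair the mice. The block changed no call in unchallenged lung. Under the alternatives, 15 values of the 55 gene results newly passed, 1022 kept their side of the threshold and 0 turned direction. Probes near background, such as those of Dnmbp, Gpam and Derl3, limit their differences to a bound or a small margin.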
